A study of Mus musculus with 34 samples.

Results

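The genes described here are 42 mouse genes that encode proteins of the sarcomere other than the myosin heavy chains, out of 46071 genes in the count table. They were picked by name: thin filament genes (16), myosin light chains and other thick filament genes (9), Z-disc genes (8), M-band genes (3), titin with its ankyrin-repeat partners (3), and Xin-repeat genes with Nrap (3). All 42 matched a row of the table and all 42 passed the filter on low counts, so every change below covers the full list. Each gene was also given a class. There were 11 fast-fiber isoforms, 10 slow-fiber isoforms, 10 genes of cardiac or embryonic muscle or of the response to muscle load and damage, and 11 genes shared by all fibers.

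The sarcomere is the contractile unit of striated muscle. Myosin in the thick filament pulls on thin filaments of actin, which carry tropomyosin and the troponin complex as a calcium-operated switch. Thin filaments are anchored in the Z-disc by alpha-actinin, thick filaments are tied together at the M-band by myomesins, and titin spans from one to the other. Many of these proteins have a fast-fiber and a slow-fiber isoform encoded by separate genes, and a further set belongs to heart or to developing muscle and is also made in adult skeletal muscle under load or injury.

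The libraries came from total RNA of powdered quadriceps and gastrocnemius, mixed, from male mice whose ages were not given. Mice with the insulin receptor deleted in muscle (MIRKO, 4 libraries) were set against IRlox floxed controls (3 libraries). Mice with the IGF1 receptor deleted (MIGF1RKO, 5 libraries) were set against IGFRlox controls (4 libraries). Mice with both receptors deleted (MIGIRKO, 6 libraries) were set against IRIGFRlox controls (3 libraries). Mice with both receptors, FoxO1, FoxO3 and FoxO4 deleted (QKO, 7 libraries) were set against Qlox controls (2 libraries). FoxO proteins are transcription factors that insulin and IGF1 signalling holds inactive. MIRKO, MIGIRKO and QKO mice carried Acta1-Cre, whose skeletal actin promoter confines deletion to muscle fibers, so other cells of the tissue keep the genes. The Cre of MIGF1RKO was not named. Each line was its own colony with floxed littermates as controls. All lines had a mixed C57Blk6, C57Blk6J and 129 background, with Nnt heterozygous in MIGIRKO and IRIGFRlox mice and mixed in MIRKO, IRlox, QKO and Qlox mice, so line, colony and Nnt genotype cannot be told apart between pairs of groups.

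Total counts ran from 1499025 to 7581198 per library. As a check of the labels, Insr averaged 54.2 CPM, counts scaled to a common library size, in MIGIRKO muscle against 174 CPM in IRIGFRlox muscle, and was called lower in the 3 lines that target it. Igf1r averaged 18.6 CPM in both MIGIRKO and IRIGFRlox muscle, and Foxo3 averaged 113 CPM in QKO and 91.6 CPM in Qlox muscle, so these whole-gene counts do not show their deletion. In MIGF1RKO muscle Igf1r stood at 7.57 to 11.2 CPM, against 13.5 to 20.4 CPM in IGFRlox muscle. These groups did not overlap, but no targeted gene was called in that comparison. The closest match of the library labelled MIRKO 4 was a MIGIRKO library (r = 0.984 across genes, against a median of 0.953 with its own group), and that of the library labelled MIGIRKO 6 was a MIRKO library (0.976 against 0.947). Beside many of the MIRKO and MIGIRKO results in which either of these libraries stood apart, values or calls without both are given. Both were singled out in these data for likeness to the other group, so leaving them out can by itself sharpen a contrast. QKO 6 stood apart as well: its median correlation with its own group was 0.926, its closest library was MIGIRKO 6 (0.966), and it had the highest sum of immune markers of the QKO libraries (2820 CPM). QKO 5 had the lowest total count of all. QKO 5 and QKO 6 were left out together as an alternative. The replicates are libraries that the labels give as separate samples, and a p-value measures only the spread between them. RNA per cell and the number of cells of a type cannot be told apart in such bulk tissue.

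The 42 genes took a large part of each library. Their counts made up 11.2 ± 1.00% of all counts in MIGIRKO muscle and 13.8 ± 0.782% in IRIGFRlox muscle (SD, n = 6 and 3), ranges that did not overlap. The share was 12.6 ± 2.03% in MIRKO and 15.1 ± 0.893% in IRlox muscle (n = 4 and 3), 13.9 ± 1.11% in MIGF1RKO and 13.7 ± 1.64% in IGFRlox muscle (n = 5 and 4), and 14.1 ± 1.69% in QKO and 13.1 ± 0.055% in Qlox muscle (n = 7 and 2). Per kilobase of exon, the levels over the 12 floxed libraries spanned a wide range. Acta1, the skeletal alpha-actin, was first at 17100 CPM per kb, followed by the fast troponin T gene Tnnt3 at 11400, the fast regulatory light chain gene Mylpf at 7390 and the fast troponin I gene Tnni2 at 5480. The slow troponin I gene Tnni1 stood at 7.01 CPM per kb, Ankrd1 at 3.65, the embryonic and atrial light chain gene Myl4 at 0.969 and the cardiac troponin T gene Tnnt2 at 0.352, the lowest of the 42. Thus the most abundant transcripts were those of fast isoforms and actin. No member differed among the 4 floxed groups by edgeR (smallest adjusted p = 0.21, 1 member at an unadjusted p under 0.05, 1 member by DESeq2), where 0.264% of all 13646 tested genes did. The Z-disc gene Ldb3 varied least over floxed libraries (coefficient of variation 7.15%), and Ankrd1 (87.9%) and the slow troponin C gene Tnnc1 (59.8%) varied most.

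In muscle lacking both receptors, 28 of the 42 genes changed against IRIGFRlox muscle, 10 higher and 18 lower, at an adjusted p under 0.05 (edgeR quasi-likelihood test, Benjamini-Hochberg over 13646 genes). That is 66.7% of the members, where 33.7% of all tested genes were called. The members called higher were 23.8% of the list against 17% of all genes, and those called lower 42.9% against 16.7%. Their median log2 change was -0.64, and that of all tested genes 0.0354. CPM did not overlap between the groups for 7 members on the higher side (16.7%, against 15.2% of all genes) and 15 on the lower (35.7% against 14.8%). Without MIRKO 4 and MIGIRKO 6 the count was 30, 11 higher and 19 lower, with all 28 called again and Lmod3 and Mybph added. Of 11 fast isoforms 10 fell and 0 rose, with all 11 below 0 and a median of -1.17, and with library totals unscaled all 10 kept their sign but only 5 were called lower. Of 10 cardiac, embryonic or load-linked genes 7 rose and 0 fell (median 1.37). Of 10 slow isoforms 3 rose and 2 fell, the 2 being the slow and ventricular light chain genes Myl2 and Myl3. Of 11 shared genes 6 fell and 0 rose (median -0.823). The classes were chosen with earlier results of these data known, so these tallies only describe the list. Without any scaling factor the median of all genes lay 0.492 higher, and the split was 14 higher and 12 lower, with all 10 higher and 12 of the 18 lower called again. The 6 not called again were Tnni2, Tnnc2, Myl1, Mylpf, Myoz1 and Ldb3. A fit of these groups alone ended the calls of Myl2 (adjusted p = 0.067), Myl3 (0.089) and Lmod2 (0.05, above the threshold before rounding), and dropping the filter ended those of Tnni2 (0.064) and Mylpf (0.052).

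**Figure D1:**
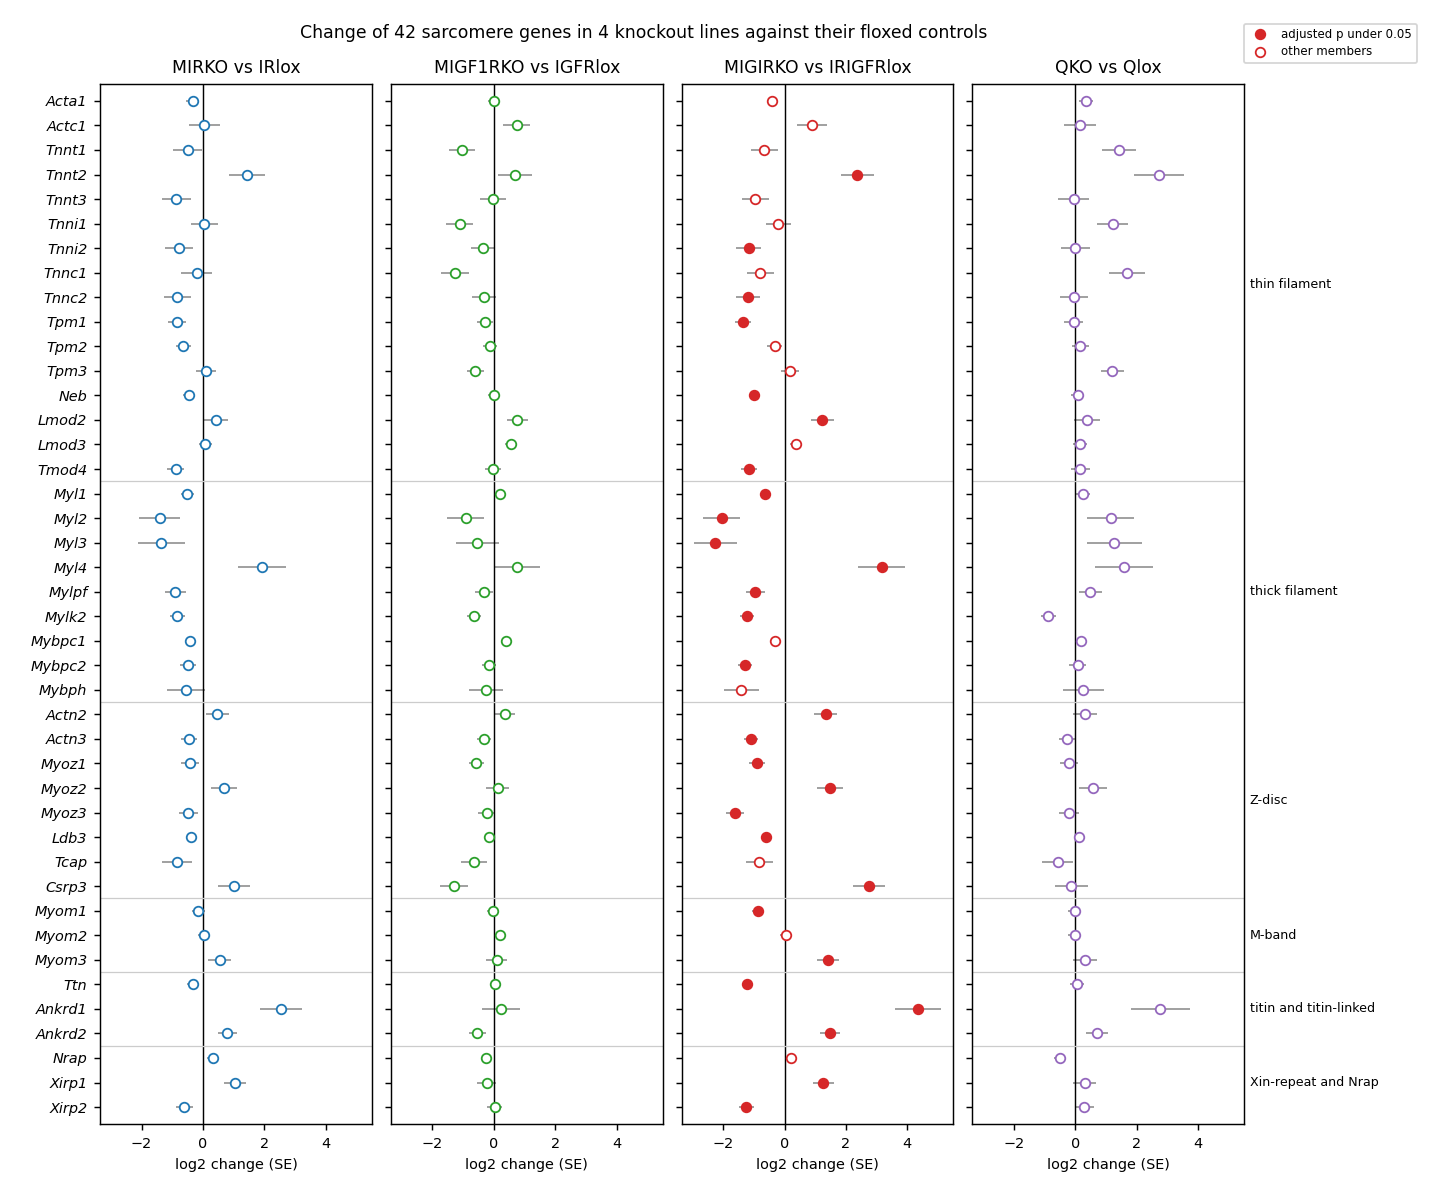
Log2 change (x axis) of the 42 sarcomere genes (rows, grouped by role) in 4 panels, each knockout against its floxed control. Points are edgeR estimates, bars are ± SE and filled points have an adjusted p under 0.05. Filled points appear in the MIGIRKO panel alone, 10 to the right of 0 and 18 to the left, from Ankrd1 at 4.35 to Myl3 at -2.25.

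The gene that rose most was Ankrd1, which encodes an ankyrin-repeat protein bound to the elastic part of titin and induced by stretch and injury. Ankrd1 stood at 99.4 to 216 CPM (median 142) in MIGIRKO muscle, against 3.97, 6.70 and 11.1 CPM in IRIGFRlox muscle. The groups did not overlap, and the fitted log2 change was 4.35 ± 0.74, adjusted p = 8.0e-05, a 20.4-fold rise. Its relative Ankrd2, which binds the same region of titin, stood at 121 to 253 CPM (median 187) in MIGIRKO muscle, against 58.9, 80.2 and 60.1 CPM in IRIGFRlox muscle. Every MIGIRKO library lay above all controls for Ankrd2 as well (1.48 ± 0.31, adjusted p = 6.4e-04). Titin itself, the giant spring that spans from Z-disc to M-band, went the other way. Ttn stood at 8774 to 13620 CPM (median 9990) in MIGIRKO muscle, against 27970, 20320 and 24400 CPM in IRIGFRlox muscle. All 6 MIGIRKO libraries lay below all 3 controls, with a log2 change of -1.21 ± 0.18, adjusted p = 9.4e-06, the smallest adjusted p of the 42.

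To show the sequence in front of the genes that changed most, the promoters of Ankrd1 and Myl4 (largest rises) and of Myl3 and Tpm1 (largest falls) are printed, taking only called members with 1 promoter in the RefSeq table and not on an excluded chromosome. Each run is the 250 bases before the transcript start that the RefSeq table uses, on GRCm38.p6, read 5′ to 3′ along the gene. Against the gene spans of GENCODE M21, which take in every annotated transcript, the run of Myl4 lies upstream, those of Ankrd1 and Myl3 lie inside the span, and that of Tpm1 crosses its 5′ end. Ankrd1 is at chr19:36119845-36120094 on the minus strand, Myl4 at chr11:104550413-104550662 on the plus strand, Myl3 at chr9:110763428-110763677 on the plus strand and Tpm1 at chr9:67049214-67049463 on the minus strand. Capitals mark matches, on either strand, to CANNTG (the E-box read by the MyoD family) and CATTCC (the core of the MCAT element read by TEAD factors).
Ankrd1: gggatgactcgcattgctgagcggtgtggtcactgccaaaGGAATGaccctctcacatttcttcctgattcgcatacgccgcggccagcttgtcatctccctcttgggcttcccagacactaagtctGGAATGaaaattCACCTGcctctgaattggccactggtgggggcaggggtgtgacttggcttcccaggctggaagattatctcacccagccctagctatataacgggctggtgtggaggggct
Myl4: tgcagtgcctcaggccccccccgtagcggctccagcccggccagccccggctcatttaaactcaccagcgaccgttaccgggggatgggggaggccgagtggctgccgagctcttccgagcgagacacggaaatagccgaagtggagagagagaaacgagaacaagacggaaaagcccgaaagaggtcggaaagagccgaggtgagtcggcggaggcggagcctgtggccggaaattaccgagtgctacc
Myl3: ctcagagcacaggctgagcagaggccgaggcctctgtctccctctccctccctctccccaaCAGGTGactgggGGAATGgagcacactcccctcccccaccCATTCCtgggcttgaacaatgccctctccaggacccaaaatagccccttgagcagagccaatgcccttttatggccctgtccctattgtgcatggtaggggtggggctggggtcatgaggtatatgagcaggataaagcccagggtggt
Tpm1: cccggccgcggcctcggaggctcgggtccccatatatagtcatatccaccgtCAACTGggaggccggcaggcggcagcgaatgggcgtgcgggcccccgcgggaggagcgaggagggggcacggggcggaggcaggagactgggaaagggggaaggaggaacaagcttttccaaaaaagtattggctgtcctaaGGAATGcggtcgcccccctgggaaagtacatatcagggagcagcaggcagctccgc
Ankrd1 had 1 match to CANNTG and 2 to CATTCC, Myl3 1 and 2, Tpm1 1 and 1, and Myl4 had 0 of either. Of the 42 members 31 matched the table, with 37 promoters among 32851. CANNTG lay in 89.2% of the members' promoters and in 66.2% of all, CATTCC in 24.3% and 12.6%, and TATAAA, the TATA box, in 16.2% and 12.4%. GTAAACA, a forkhead motif, lay in 0 of 37 and in 3.17% of all. Both strands were searched, and matches to different motifs may overlap. These are matches of letters in this window and no measure of binding.

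Among 9 thick filament genes 1 rose and 6 fell in MIGIRKO muscle, beside 17% of all tested genes called higher and 16.7% called lower. Myl4, the essential light chain of embryonic and atrial muscle, rose. It stood at 9.31 to 64.8 CPM (median 34.0) in MIGIRKO muscle, against 3.66, 5.36 and 4.06 CPM in IRIGFRlox muscle, groups that did not overlap, for a log2 change of 3.16 ± 0.76, adjusted p = 0.0023. The lowest value belongs to MIGIRKO 6, with the other MIGIRKO libraries at 31.45 to 64.79 CPM. Myl4 was also called higher without MIRKO 4 and MIGIRKO 6. Its lowest count in any library was 3, so its values are the coarsest of the list with those of Tnnt2. The fast myosin-binding protein C gene Mybpc2 fell. Mybpc2 stood at 1765 to 3306 CPM (median 2490) in MIGIRKO muscle, against 7281, 6363 and 4681 CPM in IRIGFRlox muscle, without overlap (-1.29 ± 0.23, adjusted p = 9.6e-05). Mylk2, the skeletal kinase that phosphorylates the regulatory light chain, stood at 292 to 582 CPM (median 412) in MIGIRKO muscle, against 1103, 924 and 898 CPM in IRIGFRlox muscle, again without overlap (-1.23 ± 0.22, adjusted p = 8.5e-05). The fast regulatory light chain Mylpf (-0.95 ± 0.31, adjusted p = 0.018) and the fast essential light chain Myl1 (-0.62 ± 0.19, adjusted p = 0.012) also fell. Mylpf stood at 1953 to 7746 CPM (median 3520) in MIGIRKO muscle, against 7585, 7423 and 8133 CPM in IRIGFRlox muscle, where only the library labelled MIGIRKO 6 reached the control range, and without MIRKO 4 and MIGIRKO 6 its change was -1.25 (5.1e-04). Without IRIGFRlox 3 the adjusted p of Mylpf was 0.059.

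The slow light chains fell as well. Myl3, the slow and ventricular essential light chain, stood at 1.69 to 74.5 CPM (median 7.06) in MIGIRKO muscle, against 72.3, 147 and 42.6 CPM in IRIGFRlox muscle. Myl2, the slow and ventricular regulatory light chain, stood at 6.58 to 73.1 CPM (median 9.45) in MIGIRKO muscle, against 43.0, 142 and 82.3 CPM in IRIGFRlox muscle. The highest MIGIRKO value of both, 74.5 and 73.1 CPM, belongs to the library labelled MIGIRKO 6 and is the only one inside the control range of either gene. The log2 changes were -2.25 ± 0.70, adjusted p = 0.014 for Myl3 and -2.04 ± 0.61, adjusted p = 0.011 for Myl2. Without MIRKO 4 and MIGIRKO 6 they were -3.67 (adjusted p = 3.9e-05) and -2.99 (1.3e-04), and without IRIGFRlox 2, the highest control, -1.66 (0.12) and -1.53 (0.096). The slow myosin-binding protein C gene Mybpc1 (-0.31 ± 0.15, adjusted p = 0.11) and Mybph, a myosin-binding protein of the same family (-1.41 ± 0.57, adjusted p = 0.055), did not pass the test. For Mybph MIGIRKO 6 stood apart at 74.1 CPM, with the other MIGIRKO libraries at 7.10 to 19.8 CPM, and without MIRKO 4 and MIGIRKO 6 its change was -2.18 (6.3e-04). Reads of Mybph may be shared with Adora1, which overlaps 49.9% of its exonic bases on the opposite strand, since the strand setting of the counting was not stated.

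Of 16 thin filament genes 2 rose and 5 fell in MIGIRKO muscle (median -0.526), where 17% of all tested genes were called higher and 16.7% lower. The rises did not exceed that share. Tnnt2, the troponin T of heart and embryonic skeletal muscle, was among those that rose. It stood at 6.16 to 25.2 CPM (median 19.0) in MIGIRKO muscle, against 3.82, 3.63 and 2.57 CPM in IRIGFRlox muscle, without overlap (2.37 ± 0.53, adjusted p = 0.0011). MIGIRKO 6 was the lowest of its group, with the others at 13.48 to 25.19 CPM. Tnnt2 was also called higher without MIRKO 4 and MIGIRKO 6. Lmod2, a leiomodin that lengthens thin filaments and is best known in heart, stood at 111 to 548 CPM (median 415) in MIGIRKO muscle, against 122, 229.6 and 131 CPM in IRIGFRlox muscle. The lowest value belongs to the library labelled MIGIRKO 6 and lay below all controls, while the other 5 MIGIRKO libraries lay above them (1.23 ± 0.38, adjusted p = 0.013). Without MIRKO 4 and MIGIRKO 6 the change was 1.42 (4.0e-04), and the adjusted p was 0.08 without IRIGFRlox 1 and 0.069 without IRIGFRlox 3. Defining markers of heart muscle were at or near 0 in the same libraries: Nppa reached 0.16 CPM in MIGIRKO and 0.19 CPM in IRIGFRlox muscle, and Tnni3, the cardiac troponin I gene, reached 1.03 CPM and 0.46 CPM. The 5 heart markers together summed to 1.64 to 4.13 CPM in MIGIRKO and 2.78 to 6.31 CPM in IRIGFRlox muscle.

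On the falling side of the thin filament, Tpm1, the alpha-tropomyosin of fast fibers, stood at 4033 to 8380 CPM (median 6000) in MIGIRKO muscle, against 15850, 18060 and 13730 CPM in IRIGFRlox muscle. The groups lay far apart (-1.36 ± 0.26, adjusted p = 2.1e-04). Neb encodes nebulin, a ruler along the thin filament, and stood at 3093 to 5594 CPM (median 3750) in MIGIRKO muscle, against 7374, 7528 and 9229 CPM in IRIGFRlox muscle, without overlap (-0.99 ± 0.18, adjusted p = 1.4e-04). Tmod4, which caps the pointed ends of thin filaments, also fell (-1.16 ± 0.26, adjusted p = 0.0011). The fast troponin I gene Tnni2 stood at 2241 to 4632 CPM (median 3210) in MIGIRKO muscle, against 6349, 8330 and 7968 CPM in IRIGFRlox muscle, and the fast troponin C gene Tnnc2 at 28.7 to 80.9 CPM (median 51.0) in MIGIRKO muscle, against 159.7, 82.7 and 112 CPM in IRIGFRlox muscle. Tnni2 (-1.17 ± 0.40, adjusted p = 0.026) and Tnnc2 (-1.18 ± 0.39, adjusted p = 0.02) were the least firm of these calls. The adjusted p of Tnni2 lay between 0.051 and 0.08 when IRIGFRlox 2, IRIGFRlox 3, MIGIRKO 4 or MIGIRKO 5 was left out, and that of Tnnc2 was 0.14 without IRIGFRlox 1. Tnnc2 shares 74.0% of its exonic bases with Ube2c on the opposite strand, so its counts may have gained or lost reads there, which was not tested. In the floxed libraries Tnnc2 averaged 116 CPM per kb, against 11400 for Tnnt3 and 5480 for Tnni2.

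The remaining thin filament genes did not pass the test in MIGIRKO muscle. The fast troponin T gene Tnnt3 had a log2 change of -0.95 ± 0.44, adjusted p = 0.091, with 5272 to 13820 CPM (median 6530) in MIGIRKO muscle, against 11170, 19740 and 13600 CPM in IRIGFRlox muscle. The slow troponin genes had changes of -0.66 ± 0.43 (Tnnt1), -0.20 ± 0.40 (Tnni1) and -0.79 ± 0.45 (Tnnc1). MIGIRKO 6 was the highest of its group for Tnnt1 (120 CPM), which was not called without MIRKO 4 and MIGIRKO 6 either. Acta1 had a change of -0.39 ± 0.19, adjusted p = 0.11, Actc1, the cardiac actin of developing muscle, one of 0.90 ± 0.48, adjusted p = 0.15, and the tropomyosins Tpm2 and Tpm3 had changes of -0.33 ± 0.23 and 0.17 ± 0.30. Lmod3, the leiomodin of skeletal muscle, had a change of 0.37 ± 0.19, adjusted p = 0.13. Acta1 and Actc1 have near-identical coding sequence, so reads could be divided between them uncertainly.

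At the Z-disc 3 of 8 genes rose and 4 fell in MIGIRKO muscle, beside 17% of all tested genes called higher and 16.7% called lower. Csrp3, the muscle LIM protein of Z-disc and heart, stood at 127 to 427 CPM (median 268) in MIGIRKO muscle, against 40.5, 47.8 and 26.3 CPM in IRIGFRlox muscle. Every MIGIRKO library lay above every control (2.75 ± 0.53, adjusted p = 3.0e-04). Myoz2, the calsarcin of slow and cardiac muscle that holds calcineurin at the Z-disc, stood at 58.9 to 247 CPM (median 155) in MIGIRKO muscle, against 40.1, 72.9 and 54.1 CPM in IRIGFRlox muscle, with overlap (1.48 ± 0.41, adjusted p = 0.0068), and without IRIGFRlox 1 its change was 1.29 (0.053). Actn2, the alpha-actinin found in all fibers and the one of slow fibers and heart, stood at 795 to 2911 CPM (median 2260) in MIGIRKO muscle, against 758, 1149 and 618 CPM in IRIGFRlox muscle, also with overlap (1.34 ± 0.37, adjusted p = 0.0059). The library labelled MIGIRKO 6 was the only one of its group inside the control range of either gene, at 58.9 CPM for Myoz2 and 795 CPM for Actn2. Without MIRKO 4 and MIGIRKO 6 the change was 1.65 (3.2e-05) for Myoz2 and 1.51 (4.5e-05) for Actn2. Their fast counterparts fell.

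Actn3, the alpha-actinin of fast fibers, stood at 4339 to 8045 CPM (median 6370) in MIGIRKO muscle, against 13720, 15910 and 10550 CPM in IRIGFRlox muscle, without overlap (-1.09 ± 0.22, adjusted p = 4.1e-04). Myoz3, a calsarcin of fast fibers, stood at 34.9 to 74.5 CPM (median 59.0) in MIGIRKO muscle, against 199, 149.8 and 168 CPM in IRIGFRlox muscle, the largest fall at the Z-disc (-1.61 ± 0.28, adjusted p = 8.0e-05). Myoz1, the other fast calsarcin, fell by less, with 779 to 1353 CPM (median 945) in MIGIRKO muscle, against 1887, 1953 and 1670 CPM in IRIGFRlox muscle (-0.90 ± 0.26, adjusted p = 0.0081). Ldb3, the PDZ-LIM protein cypher that binds alpha-actinin, fell by the smallest amount of any called member (-0.59 ± 0.13, adjusted p = 6.5e-04). Tcap, telethonin, which links titin ends at the Z-disc, did not pass the test (-0.82 ± 0.44, adjusted p = 0.15).

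At the M-band the myomesins split. Myom3, the myomesin of slow and intermediate fibers, stood at 95.9 to 298 CPM (median 218) in MIGIRKO muscle, against 83.8, 91.6 and 65.5 CPM in IRIGFRlox muscle, and every MIGIRKO library exceeded every control (1.41 ± 0.36, adjusted p = 0.0037). The lowest of these was MIGIRKO 6, with the others at 199.5 to 298.4 CPM, and Myom3 was called without MIRKO 4 and MIGIRKO 6 too. Myom1, made in all fibers, fell (-0.87 ± 0.18, adjusted p = 5.3e-04; 1400 ± 197 CPM in MIGIRKO and 2560 ± 71.1 CPM in IRIGFRlox muscle, SD, n = 6 and 3). MIGIRKO 6 was the lowest of its group for Myom1 (1010 CPM), and Myom1 was also called lower without MIRKO 4 and MIGIRKO 6. Myom2 had a change of 0.05 ± 0.18, adjusted p = 0.87. The Xin genes, which encode actin-binding repeat proteins of muscle attachment and repair sites, split in the same way. Xirp1 stood at 229.9 to 471 CPM (median 359) in MIGIRKO muscle, against 172, 137 and 144 CPM in IRIGFRlox muscle, without overlap (1.26 ± 0.34, adjusted p = 0.0054). Xirp2 stood at 865 to 2879 CPM (median 1310) in MIGIRKO muscle, against 2850, 3368 and 4276 CPM in IRIGFRlox muscle, where only the library labelled MIGIRKO 6 reached the control range (-1.25 ± 0.25, adjusted p = 3.4e-04; -1.55, adjusted p = 7.7e-08, without MIRKO 4 and MIGIRKO 6). Nrap, which helps assemble myofibrils, had a change of 0.19 ± 0.18, adjusted p = 0.44.

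**Figure D2:**
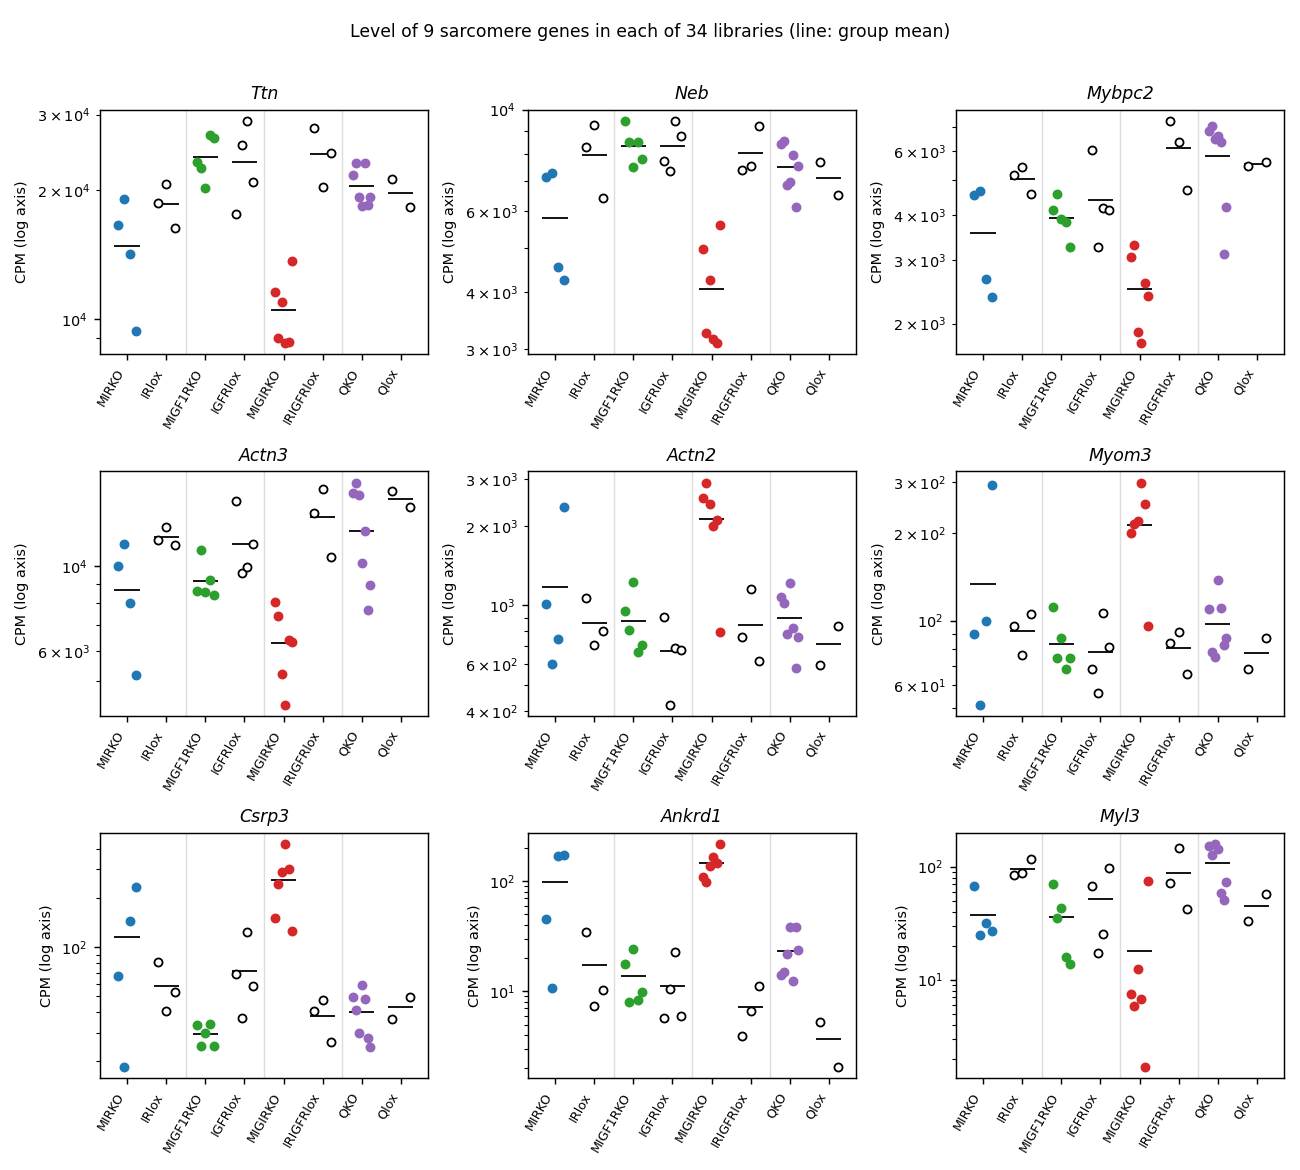
CPM (log axis) of 9 sarcomere genes in every library, by group, each knockout left of its floxed control. Each point is 1 library and each line a group mean. Ankrd1 and Csrp3 in MIGIRKO muscle sit above all IRIGFRlox libraries, and Ttn, Neb, Mybpc2 and Actn3 below them.

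Markers of other cells and of fiber state moved in the same comparison, where 17% of all tested genes were called higher and 16.7% lower. All 7 adipocyte markers rose in MIGIRKO muscle, with a summed level of 397 to 1370 CPM against 165 to 180 CPM in IRIGFRlox muscle. All 8 immune markers rose (524 to 1490 CPM against 155 to 227 CPM), as did all 6 tested of 7 Schwann cell markers (229 to 483 CPM against 111 to 187 CPM) and 5 of 7 fibroblast markers (4740 to 8670 CPM against 2630 to 5880 CPM). Of 4 satellite cell markers 2 rose (33.1 to 44.6 CPM against 13.0 to 14.5 CPM), and of 7 smooth muscle and pericyte markers 2 rose (462 to 584 CPM against 477 to 547 CPM), while 0 of 6 endothelial markers were called. Of 9 genes known to rise after denervation 8 rose and 1 fell (202 to 518 CPM against 71.4 to 82.7 CPM). Of 7 tested muscle fiber markers outside the sarcomere 6 fell (23600 to 34500 CPM against 63400 to 68700 CPM). The part of these shifts in the sarcomere changes was not tested. Among the myosin heavy chains, the fast Myh4 averaged 27940 CPM in MIGIRKO and 77190 CPM in IRIGFRlox muscle (log2 change -1.47, adjusted p = 4.0e-06), and embryonic Myh3 (3.44, 5.2e-04) and perinatal Myh8 (3.80, 0.0022) rose. Myh1 (0.21), Myh2 (0.71) and slow Myh7 (-0.58) did not pass the test.

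A list of 40 other sarcomere and Z-disc partners, of which 38 were tested, showed 3 higher and 18 lower in MIGIRKO muscle (median -0.401). Of all tested genes 17% were called higher and 16.7% lower there. The 3 higher were Hspb7, a small heat shock protein of striated muscle (1.18 ± 0.37, adjusted p = 0.014), Cfl2, the muscle cofilin (0.50 ± 0.18, 0.031), and the myosin light chain gene Myl6b (0.93 ± 0.34, 0.034). The 4 lower with the smallest adjusted p were Mylk4, a kinase of the myosin light chain kinase family (-2.83 ± 0.38, 3.2e-06), the titin-bound protease Capn3 (-1.25 ± 0.20, 2.7e-05), Cmya5, or myospryn (-1.22 ± 0.20, 3.5e-05), and the actin-bundling Synpo2 (-0.84 ± 0.14, 3.7e-05). Mylk4 averaged 271 CPM in MIGIRKO and 1930 CPM in IRIGFRlox muscle. None of the 38 was called in MIRKO, MIGF1RKO or QKO muscle, where only 1.25%, 0.616% and 0.506% of all tested genes were.

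The balance of slow over fast isoforms was read within each library as a log2 ratio of counts, which no scaling factor can move. The size of such a ratio also depends on the lengths of both genes, so it is compared between groups only. There were 9 pairs in 4 comparisons, and with adjustment over these 36 exact two-sided permutation tests none passed (smallest adjusted p = 0.14). In MIGIRKO muscle 4 pairs gave groups that did not overlap, and each had the smallest p that 6 against 3 libraries allow (exact p = 0.024, adjusted p = 0.14). The ratio of Actn2 to Actn3 was -1.64 ± 0.701 in MIGIRKO and -4.02 ± 0.203 in IRIGFRlox muscle (SD, n = 6 and 3), a difference of 2.38. The ratio of Myoz2 to Myoz1 differed by 2.30, that of Tpm3 to Tpm1 by 1.67 and that of Mybpc1 to Mybpc2 by 0.993. So in each of these pairs the gene classed as slow took a larger part in every MIGIRKO library than in any control. The light chains went the other way: Myl3 to Myl1 differed by -2.48 (exact p = 0.071, adjusted p = 0.17) and Myl2 to Mylpf by -1.44 (exact p = 0.095, adjusted p = 0.21), with overlap. For Myl3 to Myl1 only the library labelled MIGIRKO 6, at -5.82, lay inside the control range of -7.13 to -5.36, with the other 5 at -10.9 to -8.47. The troponin pairs overlapped too, with differences of 1.09 for troponin I (exact p = 0.048, adjusted p = 0.16), 0.43 for troponin T and 0.68 for troponin C. The troponin C ratio uses Tnnc2, whose counts the overlap with Ube2c may affect. Without MIRKO 4 and MIGIRKO 6 the difference was -3.06 for Myl3 to Myl1, then without overlap, -1.70 for Myl2 to Mylpf, 2.65 for Actn2 to Actn3, 2.49 for Myoz2 to Myoz1, 1.77 for Tpm3 to Tpm1 and 1.07 for Mybpc1 to Mybpc2. For the 5 of these pairs without overlap the p was the smallest that 5 against 3 libraries allow (exact p = 0.036, adjusted p = 0.17), so again none passed. The troponin differences were then 1.07, 0.24 and 0.72 for I, T and C.

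**Figure D3:**
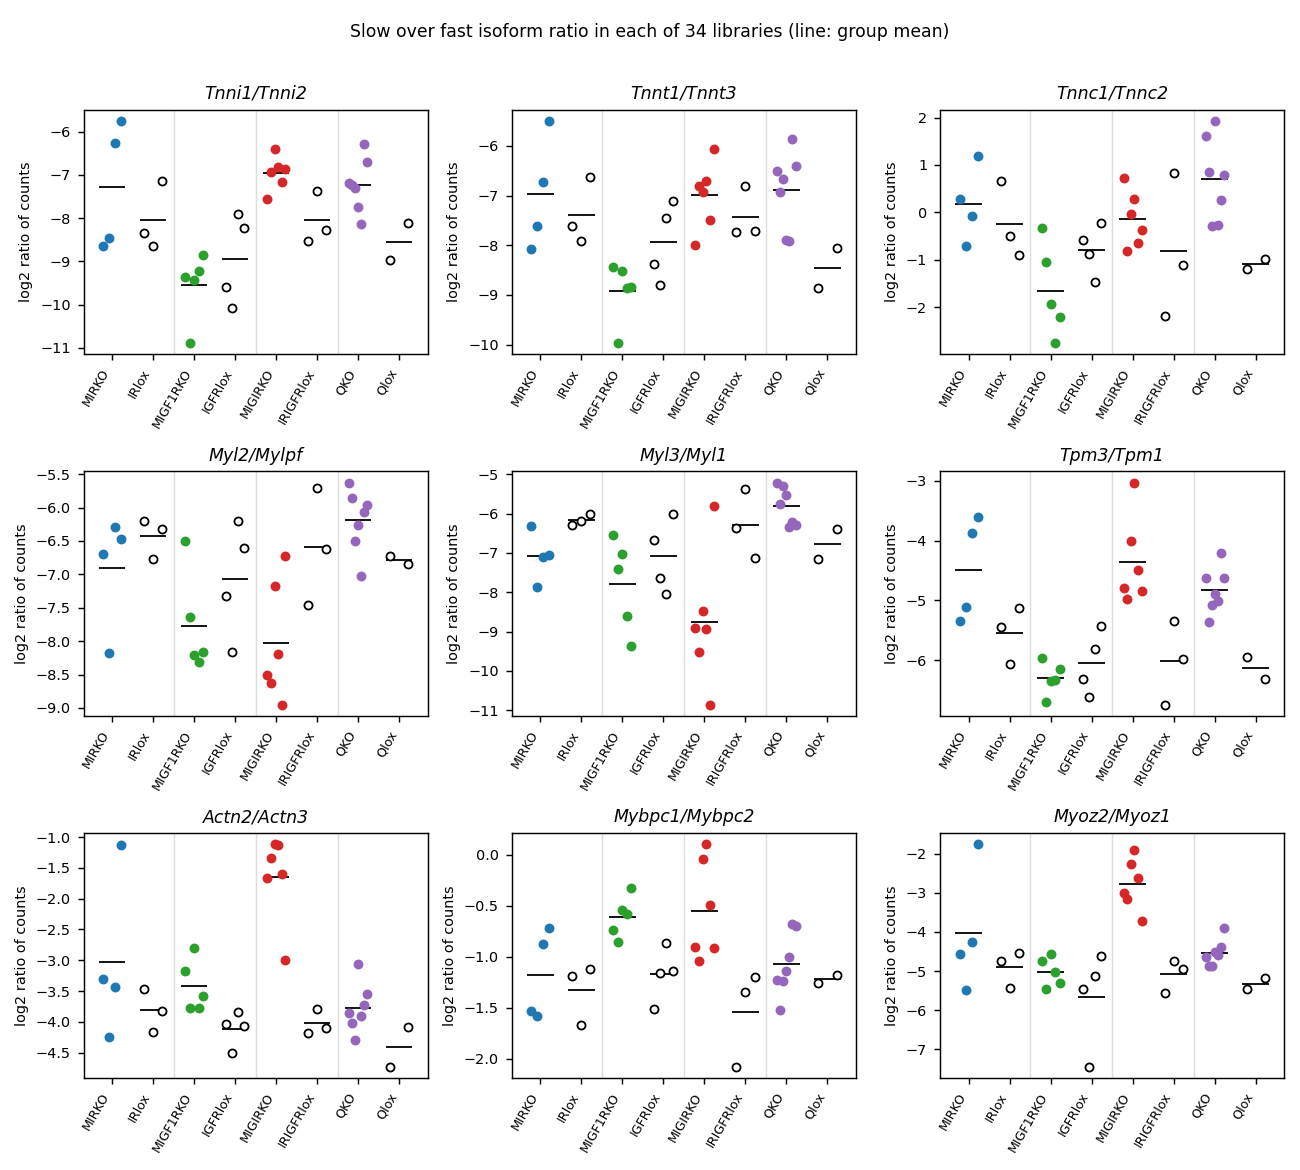
Log2 ratio of the count of a slow isoform to that of its fast partner (y axis) for 9 pairs in every library, each knockout left of its floxed control. Points are libraries and lines group means. In MIGIRKO muscle the ratios of Actn2 to Actn3 and Myoz2 to Myoz1 lie above all controls, and that of Myl3 to Myl1 reaches lower than any control.

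Summed over the list, cardiac, embryonic or load-linked genes supplied 5.63% of the members' counts in MIGIRKO and 1.98% in IRIGFRlox muscle, and slow isoforms 5.22% and 2.35%. Fast isoforms supplied 38.5% and 47.3%, and shared genes 50.6% and 48.4%. In QKO and Qlox muscle these shares were 1.70% and 1.97%, 3.17% and 2.52%, 46.9% and 51.0%, and 48.2% and 44.5%. Such sums follow the genes with the most counts. Among slow isoforms Actn2 averaged 2130 CPM in MIGIRKO and 841 CPM in IRIGFRlox muscle, and Mybpc1 1680 and 2090 CPM. Of the 10 slow isoforms 4 had a change above 0 there and 6 below. Among cardiac, embryonic or load-linked genes Actc1 averaged 1620 CPM in MIGIRKO and 872 CPM in IRIGFRlox muscle. Nrap averaged 2020 and 1760 CPM, and neither was called.

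When FoxO1, FoxO3 and FoxO4 were also deleted, none of the 42 genes was called against Qlox muscle by edgeR, with 8 at an unadjusted p under 0.05 (6 higher, 2 lower) and 3 called higher by DESeq2 (Tnnt2, Ankrd1 and Tpm3). Only 0.506% of all tested genes were called in this comparison, which has 2 control libraries. The median log2 change of the members was 0.173, and that of all genes 0.0399. The smallest adjusted p belonged to Mylk2, at 289 to 803 CPM (median 640) in QKO muscle, against 1009 and 1097 CPM in Qlox muscle (-0.88 ± 0.24, adjusted p = 0.11). Tnnt2 came next, at 3.63 to 18.8 CPM (median 5.35) in QKO muscle, against 1.31 and 1.15 CPM in Qlox muscle (2.73 ± 0.81, adjusted p = 0.15), and then Tpm3, the slow tropomyosin, at 406 to 686 CPM (median 466) in QKO muscle, against 220.5 and 199 CPM in Qlox muscle (1.21 ± 0.37, adjusted p = 0.17). In these 3 genes the groups did not overlap. Groups were apart in 5 members on the higher side (11.9%, against 3.91% of all genes) and 2 on the lower (4.76% against 5.86%). The others on the higher side were Tnnc1, at 74.5 to 214 CPM (median 135) in QKO muscle, against 36.4 and 45.6 CPM in Qlox muscle (1.69 ± 0.59, adjusted p = 0.25), Tnnt1 (1.43 ± 0.55) and Ankrd1, at 12.3 to 38.4 CPM (median 21.9) in QKO muscle, against 5.25 and 2.06 CPM in Qlox muscle (2.77 ± 0.96, adjusted p = 0.25). Nrap was the other on the lower side (-0.49 ± 0.20).

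All 10 slow isoforms had a log2 change above 0 in QKO muscle (0.178 to 1.69, median 1.18), though with runs of library numbers as a block Actn2 was at -0.079, Myl3 at 0.08 and Myl2 at 0.20. None of these slow isoforms passed the test. The ratio of slow to fast isoform did not overlap between QKO and Qlox muscle for troponin T (difference 1.57), troponin C (1.79), the essential light chains (0.965), tropomyosin (1.30) and calsarcin (0.781), each at the smallest p that 7 against 2 libraries allow (exact p = 0.056, adjusted p = 0.16). Troponin C again rests on Tnnc2, with its overlap with Ube2c. Summed immune markers ran from 229 to 2820 CPM in QKO and from 166 to 222 CPM in Qlox muscle, and heart markers from 3.63 to 92.8 CPM and from 22.7 to 31.5 CPM. The heart sum was nearly all Myh6, at 92.2 of 92.8 CPM in QKO 1 and 31.2 of 31.5 CPM in Qlox 1. Nppa, Nppb, Tnni3 and Mybpc3 were at or near 0 in QKO and Qlox libraries. The part of the immune and heart markers in these values was not tested. With the block, the members' median was 0.009, with 22 above and 20 below 0.

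The change in QKO muscle was then tested directly against the change in MIGIRKO muscle, each relative to its own floxed controls. Besides the FoxO genes the lines differ in colony and controls, which cannot be told apart from the FoxO deletion here. The changes differed for 7 of the 42 genes (16.7%, where 5.76% of all tested genes were called), 6 with a higher QKO change (14.3% against 3.61%) and 1 with a lower one (2.38% against 2.15%). Titin showed it most firmly. Ttn stood at 18300 to 23170 CPM (median 19300) in QKO muscle, against 21190 and 18260 CPM in Qlox muscle, with overlap (0.05 ± 0.21), where MIGIRKO muscle had a change of -1.21 ± 0.18, and the difference was 1.26 ± 0.29, adjusted p = 0.011. Xirp2 (1.54 ± 0.41, adjusted p = 0.023), Mybpc2 (1.36 ± 0.37, adjusted p = 0.029), Neb (1.06 ± 0.29, adjusted p = 0.029) and Ldb3 (0.72 ± 0.20, adjusted p = 0.029) also differed upward. Ttn and these 4 all fell in MIGIRKO muscle. The QKO changes of the 4 were 0.30 ± 0.30, 0.07 ± 0.27, 0.08 ± 0.22 and 0.13 ± 0.15, in the same order. Tnnc1 differed by 2.48 ± 0.73, adjusted p = 0.044, with changes of 1.69 ± 0.59 in QKO and -0.79 ± 0.45 in MIGIRKO muscle.

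Csrp3 was the member whose change was lower in QKO than in MIGIRKO muscle. It stood at 24.5 to 58.7 CPM (median 41.2) in QKO muscle, against 36.4 and 49.5 CPM in Qlox muscle, with overlap, and the difference of the changes was -2.88 ± 0.72, adjusted p = 0.019. Ankrd1 was high in MIGIRKO muscle and above its controls in QKO muscle too, and its difference did not pass the test (-1.58 ± 1.24, adjusted p = 0.5). For Myl2 the difference was 3.19 ± 1.02, adjusted p = 0.06 and for Myl3 3.52 ± 1.18, adjusted p = 0.075, among the widest of the list but with wide errors. All 11 fast isoforms had a difference above 0 (median 1.13), of which Mybpc2 alone passed the test, and with library totals unscaled Mylk2 was at -0.11. Over the 42 genes 29 differences lay above 0, with a median of 0.781 beside 0.0119 for all genes. With no scaling factor the all-gene median moved by -0.426, 3 members were called (Ttn higher, Csrp3 and Nrap lower) and the members' median was 0.325.

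These 7 calls rest on few control libraries. Without Qlox 1 or without Qlox 2 the count was 0, with adjusted p from 0.062 to 0.21 for the 7. Without IRIGFRlox 2 or IRIGFRlox 3 the count was 4. Left out singly, IRIGFRlox 1 ended the call of Mybpc2 (0.077), IRIGFRlox 2 those of Mybpc2 (0.053), Ldb3 (0.058) and Tnnc1 (1.63, 0.18), and IRIGFRlox 3 those of Neb (0.075), Xirp2 (0.062) and Csrp3 (0.056). The call of Tnnc1 also ended without any 1 of MIGIRKO 1, MIGIRKO 2, MIGIRKO 4, MIGIRKO 5, QKO 1, QKO 2, QKO 3 or QKO 7 (0.051 to 0.065). The count was 14 without QKO 6, 13 without MIGIRKO 6 and 20 (16 higher, 4 lower) without MIRKO 4 and MIGIRKO 6. With the runs of library numbers as a block 3 were called, Ttn, Xirp2 and Myom1.

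**Figure D4:**
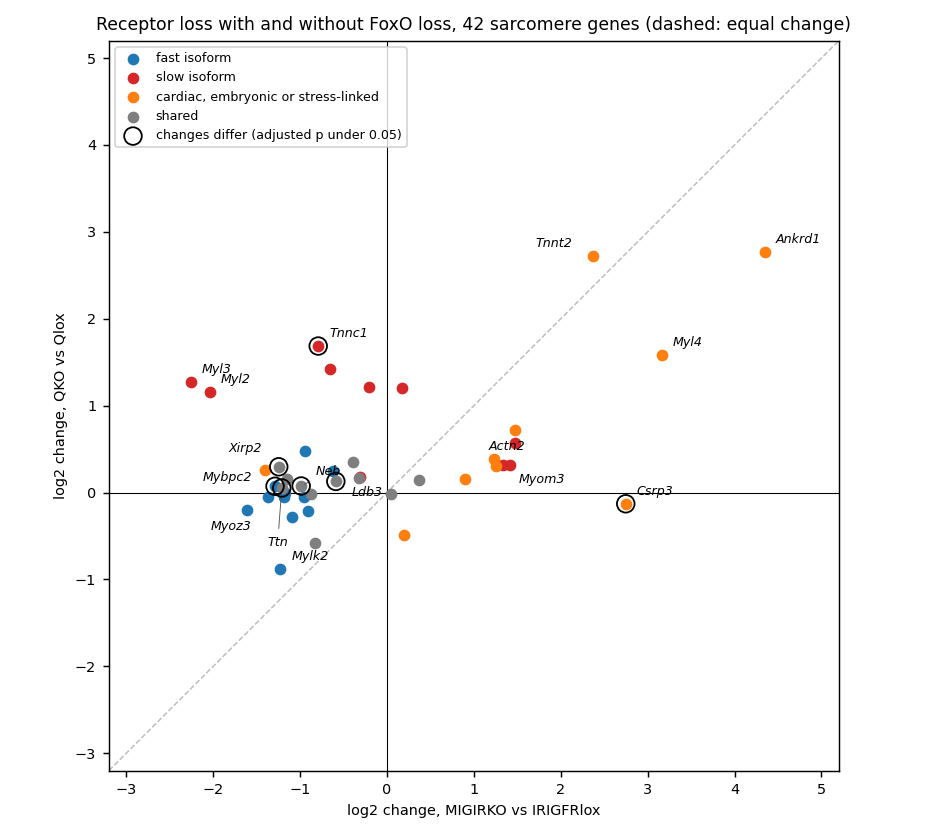
Log2 change in MIGIRKO muscle (x axis) and in QKO muscle (y axis) of the 42 genes, each against its own floxed controls and coloured by isoform class. Each point is 1 gene, the dashed line marks equal changes, and circles mark the 7 genes whose changes differ at an adjusted p under 0.05. Ttn, Neb, Ldb3, Mybpc2 and Xirp2 lie left of 0 in MIGIRKO muscle and near 0 in QKO muscle, while Csrp3 lies far to the right.

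With the insulin receptor alone deleted, none of the 42 genes was called against IRlox muscle by edgeR, with 16 at an unadjusted p under 0.05 (5 higher, 11 lower) and 3 called by DESeq2 (Ankrd1 higher, Mylk2 and Ldb3 lower). The background was 1.25% of all tested genes. Ankrd1 had the smallest adjusted p. It stood at 45.3, 10.6, 169 and 172 CPM in MIRKO muscle, against 34.7, 7.43 and 10.3 CPM in IRlox muscle, so that the second MIRKO library lay within the control range (2.53 ± 0.69, adjusted p = 0.064). Mylk2 stood at 411, 489, 375 and 349 CPM in MIRKO muscle, against 677, 834 and 660.2 CPM in IRlox muscle, without overlap (-0.83 ± 0.24, adjusted p = 0.077), and Tmod4 at 415, 302, 175 and 194 CPM in MIRKO muscle, against 576, 559 and 379 CPM in IRlox muscle, with overlap (-0.90 ± 0.29, adjusted p = 0.11). The groups were apart in 2 members on the higher side, Tnnt2 and Myl4 (4.76%, against 7.88% of all genes), and in 10 on the lower side (23.8% against 8.23%). Those 10 were Acta1, Tpm1, Tpm2, Myl1, Myl2, Myl3, Mylpf, Mylk2, Mybpc1 and Ldb3. All 11 fast isoforms had a log2 change below 0 (-0.913 to -0.424, median -0.783), and 9 of 10 cardiac, embryonic or load-linked genes had one above 0 (median 0.899). By library number the IRlox libraries lay in runs 1, 2 and 3 and the MIRKO libraries in runs 2, 4, 5 and 6. The groups thus share run 2 alone, and run and genotype are hard to tell apart. With the runs as a block the members' median was -0.248 in place of -0.416, with 18 above and 24 below 0.

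The higher values in MIRKO muscle leaned on the library labelled MIRKO 4. Without it and MIGIRKO 6, the change of Ankrd1 was 2.13 (adjusted p = 0.20). The change of Csrp3 was 0.41 in place of 1.00, that of Myl4 0.89 in place of 1.91 and that of Tnnt2 0.62 in place of 1.43. Actn2 moved to -0.13, Myoz2 to -0.11 and Myom3 to -0.20 from above 0. The count of calls was 4 without MIRKO 2 and 3 without MIRKO 1. Denervation genes summed to 179, 134, 184 and 605 CPM in MIRKO 1, 2, 3 and 4, and to 63.3 to 84.8 CPM in IRlox muscle. Of these 9 genes 4 were called higher, beside 0.381% of all tested genes. Immune markers summed to 486 to 1090 CPM in MIRKO and 271 to 330 CPM in IRlox muscle. The part of both marker sets in the sarcomere values was not tested.

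Whether the changes in MIGIRKO muscle differed from those in MIRKO muscle was tested as well. No difference was called (0 of 42 by edgeR, 0% of all tested genes, 5 members at an unadjusted p under 0.05, and Ttn alone by DESeq2), and the smallest adjusted p was 0.25, for Ttn (-0.88 ± 0.28). Without MIRKO 4 and MIGIRKO 6 the count was 7: Myom3 (1.76), Myoz2 (1.76), Actn2 (1.64) and Csrp3 (2.48) had a higher change in MIGIRKO muscle, and Ttn (-1.14), Xirp2 (-1.15) and Myoz3 (-1.44) a lower one. Without MIRKO 4 alone it was 2. MIRKO 4 and MIGIRKO 6 were picked because each resembled the group of the other. Leaving both out therefore widens this difference by itself, and no conclusion is drawn from the 7 calls. The share of all genes called in that setting is not given here.

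With the IGF1 receptor alone deleted, none of the 42 genes was called against IGFRlox muscle by edgeR or by DESeq2, with 10 at an unadjusted p under 0.05 (3 higher, 7 lower) and a background of 0.616%. Mylk2 again had the smallest adjusted p, at 512, 498, 447, 504 and 477 CPM in MIGF1RKO muscle, against 885, 647, 770.2 and 749 CPM in IGFRlox muscle (-0.65 ± 0.21, adjusted p = 0.19). Lmod3 stood at 139.6, 99.3, 142, 93.0 and 94.4 CPM in MIGF1RKO muscle, against 87.2, 59.0, 77.0 and 87.5 CPM in IGFRlox muscle (0.55 ± 0.18, adjusted p = 0.2). Csrp3 stood at 33.4, 24.9, 30.0, 33.7 and 24.9 CPM in MIGF1RKO muscle, against 68.9, 37.1, 124 and 57.8 CPM in IGFRlox muscle (-1.29 ± 0.46, adjusted p = 0.24), on the opposite side of its control from MIGIRKO muscle. In all 3 the groups did not overlap, as in 4 members on the higher side (9.52%, against 2.45% of all genes) and 4 on the lower (9.52% against 2.69%). The others were Actc1, Lmod2 and Mybpc1 on the higher side and Ldb3 and Nrap on the lower. The ratios of Actn2 to Actn3 (0.696) and Mybpc1 to Mybpc2 (0.563) were higher in every MIGF1RKO library than in any control, at the smallest p that 5 against 4 libraries allow (exact p = 0.016, adjusted p = 0.14). The other pairs overlapped, with a difference of 0.643 for Myoz2 to Myoz1. The rest went the other way: -0.99 for troponin T, -0.863 for troponin C and -0.598 for troponin I. Myl3 to Myl1 differed by -0.703, Myl2 to Mylpf by -0.691 and Tpm3 to Tpm1 by -0.25. Of 10 slow isoforms 4 had a change above 0 and 6 below (median -0.568). Of 11 fast isoforms 10 had a change below 0 (median -0.314), or 9 with library totals unscaled, and the median of all members was -0.165.

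Mylk2 had a value below 0 in each of the 4 knockouts, with groups that did not overlap in any of them: log2 changes of -0.83 ± 0.24 in MIRKO, -0.65 ± 0.21 in MIGF1RKO, -1.23 ± 0.22 in MIGIRKO and -0.88 ± 0.24 in QKO muscle, where the MIGIRKO change alone passed the test. Each comparison has its own floxed controls.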

How the data were processed

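Per the labels' protocols, RNA was extracted with Trizol and made into stranded libraries that were sequenced together. The deposited file holds whole-number counts per Ensembl gene, not normalized, for 34 libraries, which the authors made with STAR and featureCounts on GRCm38.p4, per the submitters' processing notes. Tool versions and the strand setting are not given in the sources used here. Gene symbols and exon lengths came from GENCODE M21, where 45229 of 46071 IDs matched. Promoters came from RefSeq (GRCm38.p6).

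Samples were grouped by their labels. Genes with low counts over the 8 groups were dropped with filterByExpr, leaving 13646. Counts were scaled by TMM and fitted in edgeR 4.0.16 (R 4.3.3, limma 3.58.1) with 1 mean per group over all 34 libraries, and tested with the quasi-likelihood F test and Benjamini-Hochberg adjustment. A call is an adjusted p under 0.05, and the SE is the log2 change divided by the root of F. CPM uses TMM-scaled totals. Ratios of isoforms used counts plus 0.5 and exact permutation tests (scipy 1.17.1, numpy 2.4.6, pandas 2.3.3, Python 3.11.15), and figures matplotlib 3.10.9. DESeq2 1.42.0, other scalings and filters, a fit of the compared groups alone, 6 runs of library numbers fitted as a block and each left-out library were alternatives. The fits were checked on simulated counts with 200 changed genes. No 2 libraries held identical values (0 pairs), and 0 sample columns were unused. With 1499025 to 7581198 counts per library, counting error limits chiefly Myl4, Tnnt2, Ankrd1 and Myl3, whose lowest counts in a library were 3, 4, 9 and 10.

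The members, classes, lists and isoform pairs were chosen with earlier results of these data known. Named are all members, with per-library values for up to 8 called members in each direction by size of change (or the 3 with the smallest adjusted p), up to 4 called partners in each direction by adjusted p, 6 myosin heavy chains as context and the targeted genes.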

Additional observations from a re-analysis of the deposited data

Results flagged for a closer look

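In 20 of 210 tests of a single library against its own group (Dixon's test, groups of 4 to 7 libraries), 1 library stood apart, where chance gives about 10. The library labelled MIGIRKO 6 accounted for 6 of the 20. It was the highest of its group for Tnnt1 (120 CPM), Myl2 (73.1 CPM), Myl3 (74.5 CPM), Mybph (74.1 CPM) and Xirp2 (2880 CPM) and the lowest for Myom1 (1010 CPM). MIGIRKO 1 was apart for Tnnt3 (13800 CPM). The library labelled MIRKO 4 was apart for Myl4 (48.6 CPM) and Myoz2 (220 CPM), and MIRKO 1 for Myl3 (67.1 CPM). In MIGF1RKO muscle, library 1 was apart for Tnnt1 (76.8 CPM) and Tpm3 (197 CPM) and library 5 for Myl1 (9200 CPM). In QKO muscle, library 4 was apart for Actc1 (1840 CPM), library 7 for Tnnt2 (18.8 CPM) and library 1 for Tpm3 (686 CPM). Among controls, IGFRlox 2 was apart for Acta1 (13500 CPM) and Myoz1 (4870 CPM), IGFRlox 3 for Tnni2 (2990 CPM) and IGFRlox 4 for Tnni1 (37.8 CPM).

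The change in QKO muscle differed from that in MIGIRKO muscle, by a test of the difference itself in edgeR, for Tnnc1 (2.48), Xirp2 (1.54), Mybpc2 (1.36), Ttn (1.26), Neb (1.06), Ldb3 (0.72) and Csrp3 (-2.88) on the log2 scale. None of these calls held in every run with 1 library left out, and without Qlox 1 or Qlox 2 the count was 0. With library runs as a block only Ttn and Xirp2 of them were called again.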

How the results depend on the processing

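No called value changed sign under any alternative run. In the MIGIRKO comparison the count of 28 lay between 26 and 30 under the other settings and between 25 (without IRIGFRlox 1 or IRIGFRlox 2) and 30 (without MIGIRKO 1) with 1 library left out. Of the 10 higher and 18 lower calls, 8 and 10 held under every setting and every left-out library. Where edgeR called 0 members, MIRKO gave 1 with no scaling factor, 2 without QKO 5 and QKO 6, 3 by DESeq2 and 0 to 4 with 1 library left out. MIGF1RKO gave 1 with only the groups compared and 0 to 0 with 1 library left out. QKO gave 1 with no scaling factor, 1 with only the groups compared, 1 without MIRKO 4 and MIGIRKO 6, 3 by DESeq2 and 0 to 0 with 1 library left out. The 7 differences between the QKO and MIGIRKO changes became 3 with no scaling factor, 4 with no filter, 3 with library runs as a block, 20 without MIRKO 4 and MIGIRKO 6, 17 without QKO 5 and QKO 6, 16 by DESeq2 and 0 to 14 with 1 library left out. Those between MIGIRKO and MIRKO became 7 without MIRKO 4 and MIGIRKO 6, 1 by DESeq2 (where 32 members had an adjusted p) and 0 to 2 with 1 library left out. The 7 rest on leaving out libraries picked for likeness to the other group. Among floxed groups DESeq2 gave 1. The cause of these shifts was not tested. No paired analysis was possible because replicate numbers only follow accession order, and no label ties a knockout mouse to a control. Depth limits Myl4 and Tnnt2 most, and the 2 Qlox libraries limit every QKO test.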
